A study of Homo sapiens with 7 samples.

Results

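The genes described here are 10 targets of the hypoxia response that lie outside glycolysis: BNIP3, BNIP3L, VEGFA, ADM, P4HA1, AK4, PPFIA4, DDIT4, BHLHE40 and KDM3A. They were taken by gene symbol from RNA-seq count tables of 2 human lines of T-ALL, acute lymphoblastic leukaemia of the T lineage, and each symbol matched 1 of the 60662 genes in the tables. The genes were chosen by name with earlier results of these data known, and so count as selected on their measured difference between STAG2 knockout and wild type in PF-382. The values of the 10 genes in the 3 comparisons below are therefore a description and carry no p-values.

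When oxygen is short, the prolyl hydroxylases of the EGLN family no longer mark the α subunits of hypoxia-inducible factor (HIF) for destruction by VHL. HIF then pairs with ARNT and binds hypoxia response elements in promoters and enhancers, whose core is ACGTG or GCGTG. Besides the glycolytic enzymes, the genes it turns on include mitophagy receptors, secreted vascular factors, collagen-modifying enzymes, inhibitors of growth signalling and chromatin enzymes. Several of these genes also answer to other signals, such as amino acid shortage, and leukaemic T cells in ordinary culture express many of them.

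PF-382 is a T-ALL line with 2 untreated wild-type libraries and 3 libraries from cells in which STAG2 was knocked out by Cas9 and guide RNA delivered as a ribonucleoprotein. MOLT-14, the other T-ALL line, had 1 library of cells transduced with an empty vector and 1 of cells transduced with STAG2. STAG2 is a subunit of the cohesin ring, which holds sister chromatids together and forms chromatin loops. All cells were grown in RPMI medium with serum and received no drug. The labels do not name a control guide for the wild-type cells, the promoter of the vector, or whether a library came from 1 clone or a separate culture, so any p-value measures only the spread between these libraries. STAG2 RNA was 334 and 567 CPM (counts relative to library size, scaled by TMM over all 7 libraries) in PF-382 wild type and 256, 179.8 and 195 CPM in knockout, so the edited cells still held STAG2 transcripts. In MOLT-14 it was 1.15 CPM with the empty vector and 137 CPM with STAG2.

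Total counts ran from 32609485 to 93970572 in PF-382, with the 3 deepest libraries all knockout, and from 38678382 to 45013453 in MOLT-14. Small RNA genes took 14.9% to 21.0% of the counts in wild type, 12.0% to 14.0% in knockout and 4.87% to 9.27% in MOLT-14. T-cell markers marked both lines: the 12 genes of that list summed to 2301 to 2589 CPM in wild type, 2089 to 2405 in knockout and 1895 and 2179 in MOLT-14. TRDC, the δ chain constant gene, had 0 counts in every PF-382 library and 62.2 and 57.8 CPM in MOLT-14. CD2 was at or under 3.58 CPM in MOLT-14 and averaged 1.17 CPM in wild type. Other markers of the list also differed between the lines. CD7 averaged 24.9 CPM in wild type and 25.5 CPM in knockout, against 415 and 425 CPM in MOLT-14. TRGC2 averaged 1.52 and 5.04 CPM against 199 and 271 CPM. PTCRA went the other way, averaging 47.5 and 56.2 CPM against 0.0820 and 0.179 CPM. Of the markers of other lineages, the 6 myeloid genes summed to 17.7 to 28.3 CPM in wild type and 0.669 to 1.47 CPM in knockout, with CD14, LYZ, CSF1R and MPO averaging at most 0.0398 CPM in either group and ITGAM and CD68 making up nearly all of the sum. The 6 B-lineage genes summed to 7.35 to 38.8 CPM in wild type, 4.42 to 19.8 CPM in knockout and 30.6 and 42.5 CPM in MOLT-14. Most of that sum was CD79A, which averaged 22.1 CPM in wild type and 9.72 CPM in knockout and had 29.9 and 41.3 CPM in MOLT-14. MS4A1 was at 0. The 6 erythroid and megakaryocyte genes stayed under 1 CPM in sum, with HBA1, HBB, ALAS2 and PF4 at 0. The 6 stromal, endothelial and epithelial genes summed to 62.2 to 68.6 CPM in wild type and 53.5 to 58.0 CPM in knockout. Most of that sum was PECAM1, which averaged 50.1 CPM in wild type and 46.8 CPM in knockout. The part of ITGAM and CD68 in the results below was not tested.

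RefSeq promoter sequences (GRCh38.p14) were at hand for 8 of the 10 genes, in 12 windows of 250 bases that end just before an annotated transcription start. The 4 printed here show how the cores lie in stretches that held 3 or 6 matches to either core. Stretches of P4HA1, with 0 matches, and of further AK4 windows, with 2 and 1, are not printed. Nothing is read from the number of matches against the size of a change. The printed stretches are cut to the bases that GENCODE 29 does not annotate as exon, run 5′ to 3′ on the gene's strand, and carry ACGTG and GCGTG on either strand in capitals. A CACGTG run holds ACGTG on both strands, 1 base apart, and counts as 2 matches.
PPFIA4, chr1:203026241-203026490, plus strand: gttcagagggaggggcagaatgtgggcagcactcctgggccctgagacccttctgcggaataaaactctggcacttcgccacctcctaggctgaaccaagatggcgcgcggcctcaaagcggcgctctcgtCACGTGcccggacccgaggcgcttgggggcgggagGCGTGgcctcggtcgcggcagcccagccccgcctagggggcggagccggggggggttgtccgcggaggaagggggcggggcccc
AK4, chr1:65147302-65147548, plus strand: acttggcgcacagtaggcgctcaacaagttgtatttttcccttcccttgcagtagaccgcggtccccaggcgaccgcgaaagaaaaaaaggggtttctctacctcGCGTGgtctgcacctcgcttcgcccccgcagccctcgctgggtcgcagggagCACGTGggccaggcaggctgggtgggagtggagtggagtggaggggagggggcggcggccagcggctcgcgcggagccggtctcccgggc
BNIP3, chr10:131982014-131982173, minus strand: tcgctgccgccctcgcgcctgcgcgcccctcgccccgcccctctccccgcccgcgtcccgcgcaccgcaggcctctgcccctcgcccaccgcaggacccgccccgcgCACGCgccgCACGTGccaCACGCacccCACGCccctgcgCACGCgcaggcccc
DDIT4, chr10:72273674-72273919, plus strand: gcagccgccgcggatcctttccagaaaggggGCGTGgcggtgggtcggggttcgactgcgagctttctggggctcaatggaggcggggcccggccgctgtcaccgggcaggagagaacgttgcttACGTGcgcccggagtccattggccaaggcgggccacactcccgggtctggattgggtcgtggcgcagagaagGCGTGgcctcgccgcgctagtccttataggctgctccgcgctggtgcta

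BNIP3 held the most, with 6 matches in a stretch upstream of its start, of which 2 formed a CACGTG. PPFIA4 and this AK4 window held 3 matches each, of which 2 were a shared CACGTG, and DDIT4 held 3 separate ones. BHLHE40 held 4 matches, ADM and P4HA1 1 each, and both overlapping KDM3A windows 1. GENCODE 29 annotates all 250 bases of the BHLHE40 and ADM windows as exon, 223 and 234 of the KDM3A windows and 108 of the P4HA1 window. The BHLHE40, ADM and KDM3A windows lie inside the gene bounds given below, so their matches are not upstream of those genes. The P4HA1 window lies partly inside its gene bounds, and its 1 match falls in that part. AK4 has 3 further start sites, whose windows held 0, 3 and 1 matches and likewise lie inside the AK4 gene bounds. All 8 genes thus held a core in at least 1 window, and 11 of the 12 windows did. Of all 35116 RefSeq windows of this length, 43.2% held at least 1 match, and 47.4% of their 27305 genes had such a window. The 12 windows had 16 to 41 CpG dinucleotides, which are part of both cores, and of the 14382 windows with at least 16 of them 63.4% held a match. A match describes letters in a window and not a bound site.

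All 10 genes were lower in the PF-382 knockout libraries than in both wild-type libraries. The summed level of the 10 was 1010.4 and 1021 CPM in wild type and 299.9 to 312 CPM in knockout. Across all genes tested, 28.3% lay with both wild-type libraries above all 3 knockout libraries, and 31.8% with both below. The same 10 were called lower in the fit (edgeR's quasi-likelihood test over 17442 genes, Benjamini-Hochberg adjusted p under 0.05), against 14.6% of all genes, and since the contrast chose the genes nothing is read from either count. In bulk RNA, fewer cells expressing a gene and less RNA per cell cannot be told apart.

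The mitochondrial and energy genes differed in the size of their change. BNIP3, a mitophagy receptor of the outer mitochondrial membrane (ENSG00000176171.11, GRCh38 chr10:131966455-131982013), had 120.0 and 80.6 CPM in wild type and 7.12, 9.78 and 11.1 CPM in knockout. The lowest wild-type library was 7.27 times the highest knockout library, and the log2 change was -3.45 ± 0.24 (SE). BNIP3L, its paralogue and likewise a mitophagy receptor (ENSG00000104765.16, chr8:26382898-26505636), had 336 and 451 CPM in wild type and 149, 161 and 157 CPM in knockout. Its log2 change was -1.36 ± 0.15 (SE), so the more abundant of the pair moved less. AK4, an adenylate kinase of the mitochondrial matrix (ENSG00000162433.15, chr1:65147549-65232145), had 140.4 and 83.5 CPM in wild type and 7.48, 5.32 and 5.84 CPM in knockout, a log2 change of -4.20 ± 0.26 (SE). Wild type 1 was the higher of the pair for BNIP3 and AK4 and the lower for BNIP3L. BNIP3 and AK4 had fractional deposited counts, as RSEM gives where reads are shared with other genes. The strand setting of the counting is not given in the sources used here, and BNIP3L overlaps PNMA2 on the opposite strand. PNMA2 had 46.1 and 69.3 CPM in wild type and 71.2, 86.1 and 62.3 CPM in knockout, so its groups overlapped.

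The secreted factors were both lower in knockout. VEGFA, the vascular endothelial growth factor (ENSG00000112715.21, chr6:43770184-43786487), had 49.3 and 21.4 CPM in wild type and 3.49, 3.47 and 3.50 CPM in knockout. The wild-type libraries differed 2.31-fold from each other, the widest gap among the 10 genes, while the knockout libraries differed 1.01-fold. The log2 change was -3.37 ± 0.34 (SE), and -2.64 without wild type 1. ADM, which encodes the vasodilator peptide adrenomedullin (ENSG00000148926.10, chr11:10304680-10307397), had 2.16 and 3.14 CPM in wild type, from 69 and 97 counts. The knockout libraries held 3, 5 and 0 counts, at or near the 0.0347 to 0.0491 CPM that 3 counts make there. Pooled over libraries the wild-type level was 72.9 times that of knockout (95% exact binomial interval 36.1 to 172, counting error only), and the fitted log2 change was -6.15 ± 0.72 (SE), or -6.74 without knockout 2.

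P4HA1 and PPFIA4 had the tightest wild-type values along with BHLHE40. P4HA1, the catalytic subunit of collagen prolyl 4-hydroxylase (ENSG00000122884.12, chr10:73007217-73096974), had 187 and 194 CPM in wild type and 62.7, 67.6 and 63.4 CPM in knockout. Its log2 change of -1.59 ± 0.10 (SE) had the smallest standard error of the 10. PPFIA4, a liprin scaffold protein (ENSG00000143847.15, chr1:203026498-203078740), had 20.9 and 17.6 CPM in wild type and 0.688, 0.879 and 0.765 CPM in knockout. The lowest wild-type library was 20.0 times the highest knockout library, and the log2 change was -4.65 ± 0.22 (SE).

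Among the regulators, BHLHE40 came close to disappearing and KDM3A moved least. DDIT4, also called REDD1, restrains mTORC1 signalling (ENSG00000168209.5, chr10:72273920-72276036). It had 73.3 and 46.7 CPM in wild type and 6.19, 8.31 and 8.52 CPM in knockout, a log2 change of -2.99 ± 0.23 (SE). BHLHE40, a basic helix-loop-helix repressor (ENSG00000134107.4, chr3:4979116-4985323), had 193 and 167 counts in wild type, or 6.03 and 5.41 CPM, and 1, 5 and 1 counts in knockout. The pooled wild-type level was 181 times that of knockout (95% exact binomial interval 86.8 to 453, counting error only), and the fitted log2 change was -7.45 ± 0.50 (SE), or -8.39 without knockout 2. KDM3A, a histone H3 lysine 9 demethylase (ENSG00000115548.17, chr2:86440647-86492716), had 86.2 and 107 CPM in wild type and 63.5, 55.7 and 60.1 CPM in knockout, a log2 change of -0.72 ± 0.14 (SE). KDM3A was the 1 gene of the 10 that missed the threshold when a library was left out (knockout 2, log2 change -0.68). In deposited TPM, which is scaled by gene length and to a fixed sum per library, the KDM3A groups overlapped, at 8.07 and 13.3 TPM in wild type and 8.16, 6.96 and 5.81 TPM in knockout. For the other 9 genes the TPM of both wild-type libraries exceeded all 3 knockout libraries.

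**Figure D1:**
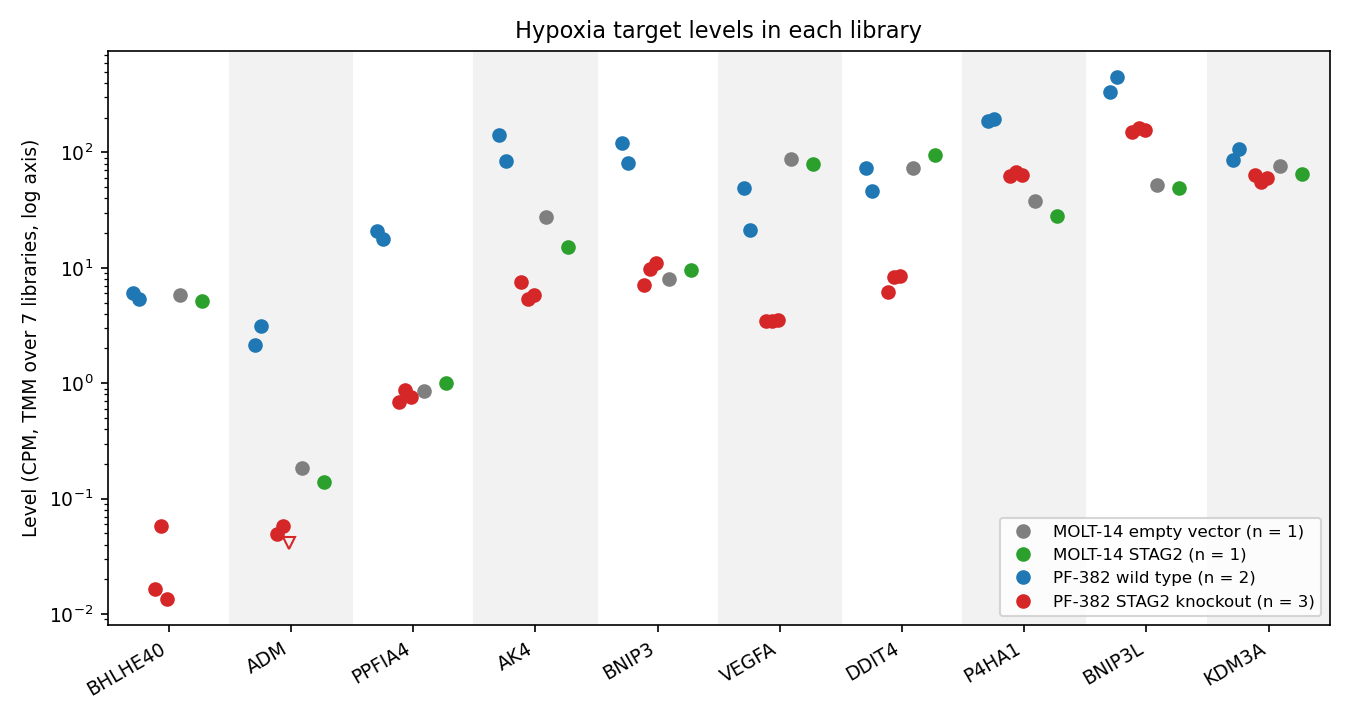
Level of each of the 10 genes in each library, in CPM on a log axis, with genes ordered by their change in PF-382; each point is 1 library. The open triangle is the knockout library with 0 ADM counts, drawn at the level of 3 counts; knockout points lie below wild-type points for every gene, and the MOLT-14 points lie near knockout for BNIP3 and PPFIA4 and near wild type for DDIT4 and BHLHE40.

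**Figure D2:**
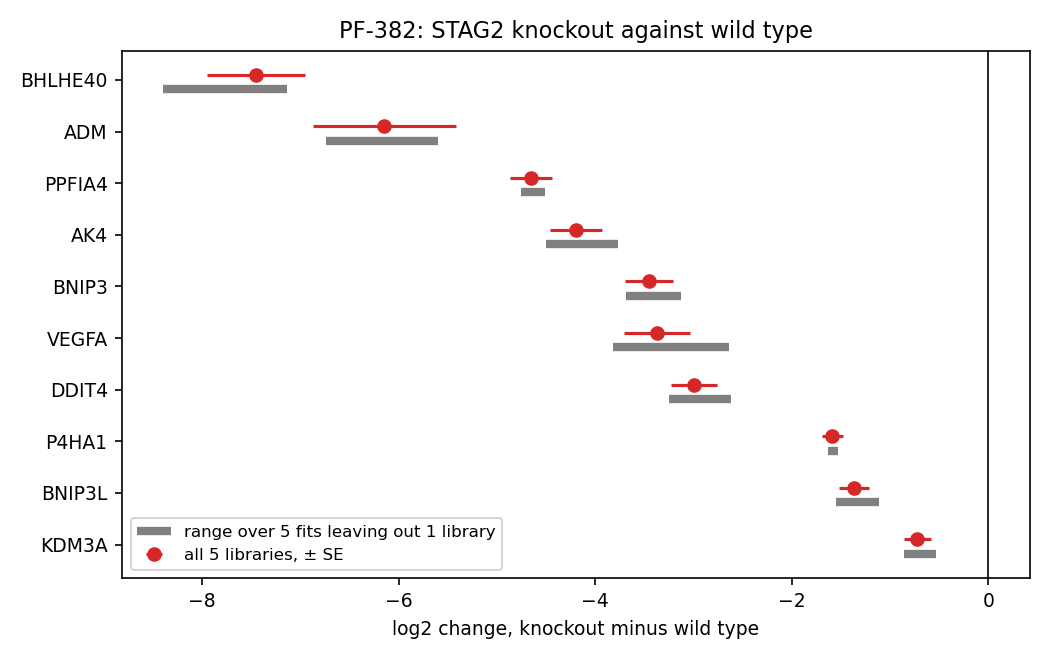
Log2 change of each gene in PF-382, knockout minus wild type, with its standard error (red) and the range over the 5 fits that left out 1 library each (grey). The changes run from -7.45 for BHLHE40 to -0.72 for KDM3A, and no range reaches 0.

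Compared per length, in deposited TPM, BNIP3L was the most abundant of the 10 in wild type (44.6 and 74.0 TPM), followed by P4HA1 (26.4 and 35.4). BNIP3 (20.86 and 18.03) lay above AK4 (17.1 and 14.9) in both libraries, and DDIT4 (20.6 and 16.8) overlapped each of them. KDM3A (8.07 and 13.3) and VEGFA (8.69 and 4.43) overlapped as well. PPFIA4 had 2.24 and 2.26 TPM, BHLHE40 1.09 and 1.05, while ADM averaged 0.780. In knockout BNIP3L and P4HA1 still led (24.85 to 28.97 and 10.3 to 12.5 TPM), and KDM3A came next (5.81 to 8.16), above DDIT4 (2.27 to 2.72) and BNIP3 (1.86 to 2.29). In MOLT-14 the order differed: DDIT4 had 66.1 and 50.1 TPM, VEGFA 38.4 and 23.3, BNIP3L 34.0 and 24.3 and KDM3A 22.2 and 15.5, while PPFIA4 (0.21 and 0.23) and ADM (0.19 and 0.13) were at the bottom.

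In the lists of other targets, glycolytic targets and oxygen-sensing genes, every gene called in the edgeR fit above was lower in knockout. DESeq2 called 3 glycolytic targets, 1 other target and 1 oxygen-sensing gene higher. The sizes of these changes are not compared with those of the 10 genes, which were selected on this contrast. These lists, like the 10 genes, were written with earlier results of these data known. Across all 17442 genes 15.8% were higher and 14.6% lower, with a median log2 change of -0.02. Of 33 other non-glycolytic targets 25 passed the filter on low counts, of which 11 fell, 14 did not pass the test and none rose, with a median log2 change of -0.42. Levels with ± in the paragraphs on these lists are mean and SD over 2 wild-type, then 3 knockout libraries. RORA, a nuclear receptor, fell from 26.9 ± 8.05 to 1.47 ± 0.492 CPM, with a log2 change of -4.22 and an adjusted p of 0.00218 by edgeR's quasi-likelihood test. GBE1, the glycogen branching enzyme, fell from 53.5 ± 0.934 to 19.5 ± 2.40 CPM (edgeR adjusted p 0.00269). FUT11, a fucosyltransferase, fell from 16.5 ± 3.99 to 4.49 ± 1.25 CPM (edgeR adjusted p 0.00653). WSB1 fell from 108.9 ± 15.6 to 55.6 ± 1.19 CPM, and KDM4B and FAM162A fell by 0.85 and 0.96 on the log2 scale (edgeR adjusted p 0.00407, 0.00469 and 0.00551). KDM4B is a histone demethylase like KDM3A. Among those that did not pass were NDRG1 (32.3 ± 15.6 and 25.5 ± 8.69 CPM, edgeR adjusted p 0.466), HILPDA (28.1 ± 4.05 and 24.6 ± 2.44 CPM, 0.301) and ANKRD37 (2.60 ± 0.763 and 1.59 ± 0.383 CPM, 0.136), which were chosen after their values were seen. Others that did not pass had higher means in knockout. They include TFRC (468 ± 189 and 752 ± 38.4 CPM, edgeR adjusted p 0.0918) and PLOD1 (9.94 ± 5.22 and 16.7 ± 2.99 CPM, 0.152), likewise chosen after their values were seen.

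For comparison, of 21 glycolytic targets 10 fell, 11 did not pass and none rose, with a median log2 change of -0.54. PFKFB4, a regulator of glycolytic flux, fell from 22.8 ± 1.66 to 5.65 ± 0.546 CPM, PDK1, which shuts pyruvate dehydrogenase, from 52.6 ± 15.7 to 15.5 ± 0.451 CPM, and ALDOC, an aldolase, from 120.2 ± 14.9 to 24.5 ± 7.76 CPM (edgeR adjusted p 0.00218, 0.00304 and 0.00372). HK2, GPI and HK1 fell by 1.11, 0.60 and 0.62 on the log2 scale (edgeR adjusted p 0.00841, 0.0152 and 0.0217), and the calls of GPI and HK1 were lost without knockout 2 or knockout 3. The count of 10 was 6, 4 and 5 without knockout 1, 2 and 3. Lower calls over all genes also dropped in these fits, from 2548 to 1244, 1103 and 1077. The summed level of the 21 glycolytic genes was 11161 and 12169 CPM in wild type and 11895 to 14105 CPM in knockout, so it overlapped. GAPDH made up the largest share of that sum, with 4295 ± 609 and 6282 ± 617 CPM (edgeR adjusted p 0.0672). A test of the difference between the lists was not made.

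Of 14 oxygen-sensing genes 12 were tested, of which 3 fell, 9 did not pass and none rose, with a median log2 change of -0.19. EGLN1, the main HIF prolyl hydroxylase, fell from 46.7 ± 13.2 to 23.0 ± 1.37 CPM, with an edgeR adjusted p of 0.00948. EPAS1, which encodes HIF-2α, fell from 8.53 ± 6.20 to 0.880 ± 0.541 CPM (log2 change -3.30, edgeR adjusted p 0.0123). Its log2 change was -2.25 without wild type 1 and -3.94 without knockout 3. EGLN3 had 3.94 ± 1.41 and 1.64 ± 0.356 CPM (edgeR adjusted p 0.0302), a call lost without wild type 1 or any knockout library. HIF1A, which encodes HIF-1α, had 78.2 ± 30.9 CPM in wild type and 122 ± 1.91 CPM in knockout (log2 change 0.62, edgeR adjusted p 0.0902). ARNT had 38.1 ± 12.0 and 26.7 ± 1.86 CPM (edgeR adjusted p 0.0854). EGLN2, VHL and HIF1AN, which take part in inactivating or degrading HIF, differed by 0.14, -0.05 and -0.03 on the log2 scale (edgeR adjusted p 0.312, 0.815 and 0.849). These are RNA levels, and the HIF proteins were not measured.

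Of 34 partners and paralogues of the 10 genes 24 were tested, of which 1 rose, 4 fell and 19 did not pass, with a median log2 change of 0.03. BHLHE41, the paralogue of BHLHE40, fell from 1.44 ± 0.891 to 0.134 ± 0.0642 CPM (edgeR adjusted p 0.0091), with a log2 change of -3.44, or -2.59 without wild type 2. DDIT4L, the paralogue of DDIT4, had 0.798 ± 0.200 and 0.185 ± 0.0306 CPM (edgeR adjusted p 0.0114). AK1, an adenylate kinase like AK4, fell from 0.683 ± 0.0504 to 0.111 ± 0.0405 CPM (edgeR adjusted p 0.00962). ADM2 had 12.2 ± 11.7 and 2.69 ± 0.178 CPM (edgeR adjusted p 0.0350), a call that was lost without wild type 1, where the log2 change was -0.57 instead of -2.20, and without any knockout library. KDM3B, the nearest relative of KDM3A, differed by 0.21 on the log2 scale (edgeR adjusted p 0.290), and the liprins PPFIA1 and PPFIA3 by -0.06 and 0.02 (0.715 and 0.922).

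**Figure D3:**
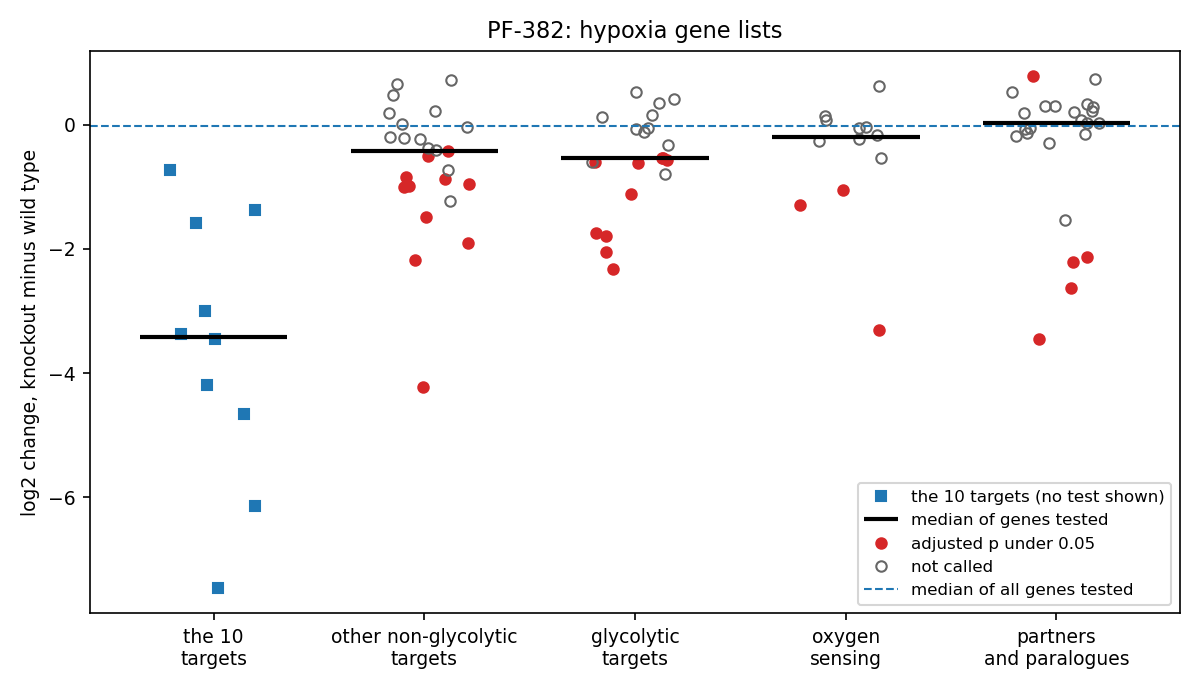
Log2 change in PF-382, knockout minus wild type, for the 10 genes and 4 other lists; each point is 1 gene that passed the filter on low counts, filled red where its adjusted p was under 0.05. Black lines are list medians, from -3.41 for the 10 genes to 0.03 for partners and paralogues, and the dashed line is the median of all genes (-0.02). The 10 genes were selected on this contrast, so nothing is read from their distance to the other lists.

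In MOLT-14 the 10 genes moved little and in both directions when STAG2 was added. With 1 library a group there is no test, and intervals cover counting error only. AK4 was the 1 gene past 1.5-fold, at 27.8 CPM with the empty vector and 15.1 CPM with STAG2, a ratio of 0.550 (95% exact binomial interval 0.503 to 0.602). Of 14698 genes that reached 1 CPM in one MOLT-14 library or both, 7.15% were past 1.5-fold lower and 5.5% past 1.5-fold higher with STAG2, so 1 of the 9 targets in that set is near the background. P4HA1 had 37.6 and 28.0 CPM, a ratio of 0.750 (0.699 to 0.804), and KDM3A 75.5 and 64.9 CPM, a ratio of 0.867 (0.827 to 0.909).

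VEGFA and BNIP3L had ratios of 0.916 (0.877 to 0.957) and 0.940 (0.889 to 0.994) at 87.4 and 79.3 CPM and at 52.6 and 49.0 CPM. DDIT4 and BNIP3 were higher with STAG2, DDIT4 at 73.5 and 95.5 CPM with a ratio of 1.31 (1.25 to 1.37) and BNIP3 at 7.97 and 9.63 CPM with a ratio of 1.22 (1.06 to 1.40). On the deposited TPM scale both ratios turned below 1 (0.914 for BNIP3 and 0.758 for DDIT4). That scale moved the median log2 ratio of all genes from 0.02 to -0.53, so both genes stayed above the median. BHLHE40 (5.76 and 5.14 CPM), PPFIA4 (0.861 and 0.995 CPM) and ADM (9 and 7 counts) had intervals that include 1. The MOLT-14 libraries also differed in mitochondrial transcripts (4.92% and 1.43% of counts) and small RNA genes (4.87% and 9.27%), whose part in these ratios was not tested.

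**Figure D4:**
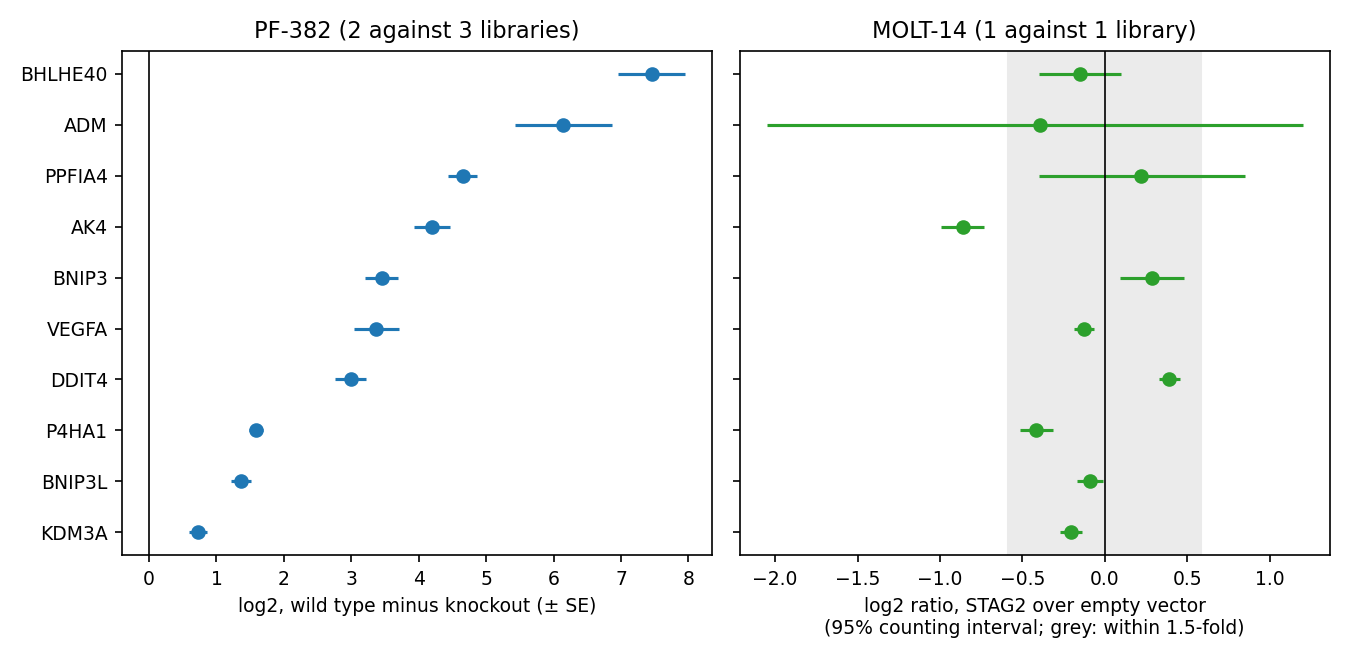
The same 10 genes in both lines, each with a positive value where the level was higher in wild-type or STAG2-transduced cells: PF-382 wild type minus knockout with its standard error (left) and MOLT-14 STAG2 over empty vector with its 95% counting interval (right, on its own scale). All 10 values lie above 0 in PF-382, whereas 7 of 10 lie below 0 in MOLT-14 and only AK4 lies outside the grey band of 1.5-fold. The median log2 ratio of all genes in MOLT-14 was 0.02, and nothing is read from the count of 7.

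Between the lines, PF-382 wild type had more of most of these transcripts than MOLT-14. Both comparisons here use the same 2 MOLT-14 libraries, taken as the mean of their groups. Each MOLT-14 group has 1 library, so the standard errors and calls rest on the spread within PF-382 alone, and since the genes were selected on these data nothing is read from the counts of calls. In the fit over all 7 libraries 7 of the 10 genes were called higher in PF-382 wild type than in MOLT-14 and 1 lower, where 23.8% and 22.2% of 20100 genes were. The largest gaps were those of PPFIA4, 20.7-fold, ADM, 16.3-fold, and BNIP3, 11.4-fold, where MOLT-14 had 0.861 and 0.995, 0.184 and 0.139, and 7.97 and 9.63 CPM. BNIP3L, P4HA1 and AK4 were 7.75-fold, 5.87-fold and 5.46-fold higher, and KDM3A 1.38-fold. The KDM3A call was lost in 6 of the 8 alternatives. In deposited TPM KDM3A was lower in wild type (8.07 and 13.3) than in MOLT-14 (22.2 and 15.5). The other gaps kept their direction on that scale but were smaller. BNIP3L had 44.6 and 74.0 TPM in wild type against 34.0 and 24.3 in MOLT-14. P4HA1 had 26.4 and 35.4 against 14.8 and 7.61, and AK4 17.1 and 14.9 against 11.0 and 4.15. VEGFA was lower in wild type, with 87.4 and 79.3 CPM in MOLT-14 against 49.3 and 21.4 CPM in wild type. Its log2 difference of -1.24 was -1.97 without wild type 1, and the call was lost without knockout 1 or knockout 3. BHLHE40 and DDIT4 were not called: the BHLHE40 levels overlapped (5.76 and 5.14 against 6.03 and 5.41 CPM), and DDIT4 had a log2 difference of -0.48 ± 0.25 (SE). In deposited TPM both were lower in wild type than in MOLT-14. BHLHE40 had 1.09 and 1.05 against 2.68 and 1.17 TPM, and DDIT4 20.6 and 16.8 against 66.1 and 50.1.

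Set against the same MOLT-14 libraries, PF-382 knockout had 2 of the 10 genes called higher and 4 lower, where 28.3% and 28.1% of all genes were. In CPM, BNIP3L and P4HA1 remained 3.07-fold and 1.99-fold higher in knockout than in MOLT-14. In deposited TPM the levels of both overlapped. BNIP3L had 24.85 to 28.97 TPM in knockout against 34.0 and 24.3 in MOLT-14, and P4HA1 10.3 to 12.5 against 14.8 and 7.61. VEGFA was 23.9-fold, DDIT4 10.9-fold and AK4 3.30-fold lower, and BHLHE40, at 7 counts over the knockout libraries against 281 and 258 counts in MOLT-14, was lower, with a fitted log2 difference of -7.35, or -8.28 without knockout 2. BNIP3 (log2 difference 0.09 ± 0.25, SE), PPFIA4 (-0.25 ± 0.24) and KDM3A (-0.23 ± 0.13) were not called, and the BNIP3 and PPFIA4 CPM of knockout and MOLT-14 overlapped. In deposited TPM BNIP3 was lower in knockout (1.86 to 2.29) than in MOLT-14 (4.28 and 3.91). PPFIA4 was as well (0.08 to 0.17 against 0.21 and 0.23 TPM). ADM (-2.09 ± 0.84, or -2.68 without knockout 2) was not called either, with 8 counts over 3 knockout libraries. BHLHE40 overlaps the antisense gene BHLHE40-AS1, which had 112 and 115 counts in MOLT-14 and at most 1 in any PF-382 library.

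The levels of the 10 genes over the 7 libraries had a shared shape: the mean of their centred log2 CPM was 2.07 and 1.85 in wild type, -1.45, -1.28 and -1.49 in knockout and 0.22 and 0.08 in MOLT-14. Pearson's r of each gene with the mean of the other 9, a description over 7 libraries that fall into 3 clusters, was highest for AK4 (0.980) and ADM (0.953) and lowest for BNIP3L (0.356) and P4HA1 (0.561). BNIP3L and P4HA1 are the 2 genes whose knockout level stayed above MOLT-14 in CPM, though not in deposited TPM. Of 11875 other protein-coding genes with a mean of at least 1 CPM, the 6 most like the shared shape were LETMD1 (r = 0.999), IRF2BP2 (0.995), HSPG2 (0.991), ZNF395 (0.986), ANKZF1 (0.985) and ANKRA2 (0.985). LETMD1 had 71.1 and 67.2 CPM in wild type, 26.3, 26.3 and 26.1 CPM in knockout and 42.6 and 41.0 CPM in MOLT-14. HSPG2, which encodes the basement membrane proteoglycan perlecan, had 9.53 and 6.57 CPM in wild type, 0.917, 1.05 and 1.07 CPM in knockout and 2.21 and 2.27 CPM in MOLT-14. ZNF395 is also on the list of other non-glycolytic targets. With Spearman's rho 3 of these 6 stayed among the 100 most alike genes, and with any 1 of the 10 genes left out of the mean all 6 did.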

How the data were processed

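Total RNA from 7 libraries of 2 cell lines was sequenced. STAR, RSEM, GRCh38 and hg38 are named in the submitters' processing notes; versions, annotation release and strand setting are not given in the sources used here. The authors deposited unnormalised expected counts (RSEM's estimate per gene) for 60754 features, with TPM beside them in the same files, per the file headers; the authors' FPKM values were not used. The 92 spike-in (ERCC) rows were dropped, and expected counts were rounded. Gene positions are from GENCODE 29 (GRCh38), matched by Ensembl ID without version, and promoters from RefSeq (GRCh38.p14).

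The PF-382 fit used edgeR 4.0.16 under R 4.3.3 (TMM, filterByExpr, quasi-likelihood, two-sided, Benjamini-Hochberg over 17442 genes, threshold 0.05; 2 against 3 libraries). Standard errors come from the log2 change and the F statistic. The comparison of lines used 1 fit of 4 groups over 20100 genes. MOLT-14 ratios use TMM-scaled CPM, log2 values with a prior count of 2. Printed CPM use TMM over 7 libraries, so 3 counts make 0.0347 to 0.0972 CPM. The procedure was tested on simulated data. DESeq2 1.42.0, other scalings and filters, and fits leaving out 1 library were alternatives, and a TPM ratio in PF-382 was added after seeing the data. The 10 genes and all lists were chosen with earlier results of these data known. Besides the 10 genes, the text names 8 HIF pathway genes, up to 6 called genes a list by adjusted p, and the 6 genes most like the 10; some genes of the lists are not reported here by name.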

Additional observations from a re-analysis of the deposited data

Results flagged for a closer look

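For 5 of the 10 genes the 2 lines moved in opposite directions with STAG2: both PF-382 wild-type libraries were above all knockout libraries, while the MOLT-14 library with STAG2 was below the empty-vector library by more than counting error. The difference between the lines was not tested, and 1 MOLT-14 library a group gives no spread. The share of all genes that did the same was not counted, so nothing is read from the count of 5. AK4 had a log2 ratio of -0.86 in MOLT-14 (STAG2 over empty vector) and 4.20 in PF-382 (wild type over knockout). P4HA1 had -0.42 and 1.59, KDM3A -0.21 and 0.72, VEGFA -0.13 and 3.37, and BNIP3L -0.090 and 1.36. The MOLT-14 values stayed below 0 with scaling by total count and with deposited TPM, but these scalings also moved the median of all genes, to -0.18 and -0.53. On the TPM scale the log2 ratios of BNIP3L (-0.49) and KDM3A (-0.52) were no lower than that median.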

How the results depend on the processing

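No paired analysis was possible because the labels give the libraries of the groups no shared replicate numbers. In PF-382 all 10 genes kept a negative log2 change under the 11 alternatives, and 9 to 10 were called when 1 library was left out. With upper-quartile scaling the all-gene median was -0.18 instead of -0.02 (log2), with 1824 genes higher instead of 2763 (33.8% of the calls instead of 52.0%) and 5 oxygen-sensing genes lower instead of 3. Leaving out 1 library gave 2271 to 6304 calls in all (1194 to 3570 higher, 1077 to 2734 lower) against 5311. With 1 library left out 4 to 10 glycolytic genes were lower, and 0 to 2 glycolytic genes, 0 to 1 other targets, 0 to 1 oxygen-sensing genes and 0 to 3 partners were higher. With DESeq2 3 glycolytic genes, 1 other target, 1 oxygen-sensing gene and 3 partners were higher. With no filter on low counts these were 1, 2 and 1 for the first 3 lists, and with at least 1 CPM in 2 libraries 2 partners were lower instead of 4. In MOLT-14, 2 targets were past 1.5-fold lower with scaling by total count, 4 with TPM and 0 past 2-fold, instead of 1, and the log2 ratios of BNIP3 and DDIT4 were -0.13 and -0.40 with TPM. The median log2 ratio of all genes was itself -0.18 with scaling by total count and -0.53 with TPM. Between lines 0 to 2 targets were lower in wild type when 1 library was left out, the log2 difference of BHLHE40 ran from -0.017 (without wild type 1) to 0.13, and that of BNIP3 in knockout from -0.057 (without knockout 3) to 0.25, and was -0.15 with upper-quartile scaling. The shares of all genes under these alternatives are not given here, so nothing is read from the MOLT-14 and between-line counts of targets. With Spearman's rho 3 of the 6 most alike genes were kept. The cause of these shifts was not tested. Depth limits ADM and BHLHE40, whose knockout libraries held 0 to 5 counts.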

Other observations

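In MOLT-14 a few genes of the other lists were past 1.5-fold, where 5.5% of all genes were higher and 7.15% lower with STAG2. They are named after their values were seen, and 1 library a group gives no test. Of 13 oxygen-sensing genes EPAS1 was higher, with 15.1 CPM with the empty vector and 24.7 CPM with STAG2 (log2 ratio 0.72), but 5.56 and 5.62 in deposited TPM. Of 21 partners FLT1, a receptor of VEGFA, was higher, with 42.5 and 95.4 CPM (log2 ratio 1.18) and 10.5 and 14.9 TPM. The other 3 partners past 1.5-fold were lower: ADM2 (log2 ratio -0.74) and the liprin-β proteins PPFIBP1 (-0.96) and PPFIBP2 (-0.68). Of 27 other non-glycolytic targets 4 were lower, among them MXI1 (log2 ratio -0.90), STC2 (-0.77) and PLOD1 (-0.77), and none was higher. In PF-382 EPAS1 fell in knockout, and FLT1 had 6.36 ± 2.81 CPM (mean and SD of 2 wild-type libraries) against 2.24 ± 1.42 CPM over 3 knockout libraries, which did not pass (edgeR adjusted p 0.0696). ARNT2, a relative of ARNT, had 23.8 and 29.4 CPM in MOLT-14 and averaged 0.0238 CPM in PF-382 knockout, with 0 counts in both wild-type libraries.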
